A study of Mus musculus with 22 samples.

Results

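Cells copy and mend their DNA with several sets of proteins, and 46 genes of these sets were followed across 5 blood-forming populations of the mouse bone marrow. The genes were listed by name and placed in 7 pathways by the known role of their proteins. A listed gene counted as measured when its probe was detected (detection p under 0.05, the chance that background alone gives such a signal) on at least 4 of 22 arrays, and the brightest such probe stood for the gene. By this rule 35 of the 46 genes were measured, among 11118 genes measured in all. The mice were 8 weeks old, of the C57BL/6 strain, and all carried a GATA1-GFP transgene, a green fluorescent reporter of the blood transcription factor GATA1, so no population came from mice without it. The arrays fall into 5 populations. These are GATA1+LSK (4 arrays) and GATA1-LSK (4 arrays), which are reporter-positive and reporter-negative cells of the stem and progenitor compartment called LSK, LMPP (lymphoid-primed multipotent progenitors, 4 arrays), CMP (common myeloid progenitors, 4 arrays) and 6 arrays of LT-HSC, the long-term haematopoietic stem cells. Comparisons set GATA1+LSK against the other 4 populations, and GATA1-LSK, LMPP and CMP against LT-HSC. The labels do not say whether arrays of a population came from separate mice, and the replicate spread behind each p-value may therefore be technical.

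Homologous recombination copies the lost sequence of a broken chromosome from its sister and works mainly after DNA has been replicated. End joining seals breaks without a template at any stage, and the Fanconi anaemia pathway unhooks strands that are covalently linked, with inherited defects in it known for bone marrow failure. Mismatch repair corrects copying errors, base excision repair removes single damaged bases, and nucleotide excision repair cuts out bulky lesions such as those made by ultraviolet light. Checkpoint kinases and break sensors detect damage and halt the cell cycle. Stem cells that rarely divide have mostly unreplicated DNA, so the pathways open to them differ from those of dividing progenitors.

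Coverage of the pathways was uneven. All 3 mismatch repair genes, all 5 base excision and single-strand break genes and all 5 nucleotide excision genes were measured, as were 8 of 10 homologous recombination genes, 7 of 9 Fanconi anaemia genes and 6 of 9 checkpoint and break sensing genes. Of 5 end joining genes, 1 was measured, Xrcc6, which encodes the Ku70 end-binding protein. Probes of Exo1, Fancg, Fanci, Xrcc4, Xrcc5, Lig4, Prkdc, Atr and Nbn were detected on 0 to 3 arrays and were not tested. Trp53 and Xrcc2 have no probe named in the annotation used here and were not analysed. Of the 35 measured genes, 24 were detected on every array, and 0 were detected on fewer than 4 arrays outside their brightest population.

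The arrays lay on 4 slides that differed in brightness, and populations were spread unevenly over them. Replicates 1 to 3 of LMPP and of GATA1-LSK made up slide 1, which held no other population. Comparisons of LMPP or GATA1-LSK with GATA1+LSK or LT-HSC therefore set mostly slide 1 against other slides, so population and slide are largely aligned there. Detected probes ranged from 12264 to 19015 per array. LT-HSC replicates 1 and 2 lay on slide 2, the brightest, and LT-HSC replicates 3 to 6 on slide 3, the dimmest. Those 4 arrays also carried a transcript of mature neutrophils: S100a8, which encodes a neutrophil calcium-binding protein, was detected on 4 of 6 LT-HSC arrays and reached a log2 signal of 11.40. The summed linear signal of the 4 measured mature neutrophil markers, of 7 listed, was 125 to 543 in GATA1+LSK, 110 to 247 in GATA1-LSK, 113 to 217 in LMPP, 93.3 to 102 in CMP and 130 to 4545 in LT-HSC. Slamf1, which encodes the stem cell surface marker CD150, was detected on 3 of 6 LT-HSC arrays and on all 4 GATA1+LSK arrays. All 5 eosinophil and basophil markers were measured, and their summed signal was 11724 to 29935 in GATA1+LSK, 383 to 834 in GATA1-LSK, 145 to 237 in LMPP, 173 to 1647 in CMP and 3359 to 18838 in LT-HSC. Gata1 itself averaged a log2 signal of 7.19 in GATA1+LSK, 5.72 in GATA1-LSK, 4.77 in LMPP, 6.62 in CMP and 5.02 in LT-HSC. Flt3, which encodes the receptor that marks LMPP, was detected on only 3 of 4 LMPP arrays, at a mean log2 signal of 5.03. Every LT-HSC array, those of slide 2 included, thus had a higher eosinophil and basophil sum than any GATA1-LSK, LMPP or CMP array. The part of mature cells in any result below was not tested, and calls against LT-HSC are also given without the 4 LT-HSC arrays of slide 3. Leaving those arrays out does not remove the eosinophil and basophil transcripts.

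Of the measured repair genes 17 differed among the 5 populations, and most had their lowest mean in LT-HSC. The moderated F test of limma, which asks whether any population differs, called 17 of the 35 genes (48.6%) at an adjusted p under 0.05, against 22.9% of all genes tested. These were Rad54l, Fanca, Xpc, Ung, Brip1, Rad51ap1, Parp1, Blm, Chek1, Xrcc3, Fancd2, Chek2, Rad50, Brca2, Palb2, Ercc1 and Xrcc6, with adjusted p-values of 1.14e-06 for Rad54l to 0.044 for Xrcc6. LT-HSC had the lowest mean for 24 of the 35 genes, against 29.2% of all genes. CMP had the highest mean for 16 of them, GATA1+LSK for 11, LMPP for 6, LT-HSC for 2 and GATA1-LSK for 0. By pathway, the F test called 6 of 8 homologous recombination genes, 3 of 7 Fanconi anaemia genes, 3 of 6 checkpoint genes, 2 of 5 base excision genes, 2 of 5 nucleotide excision genes, the end joining gene Xrcc6 and 0 of 3 mismatch repair genes.

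**Figure D1:**
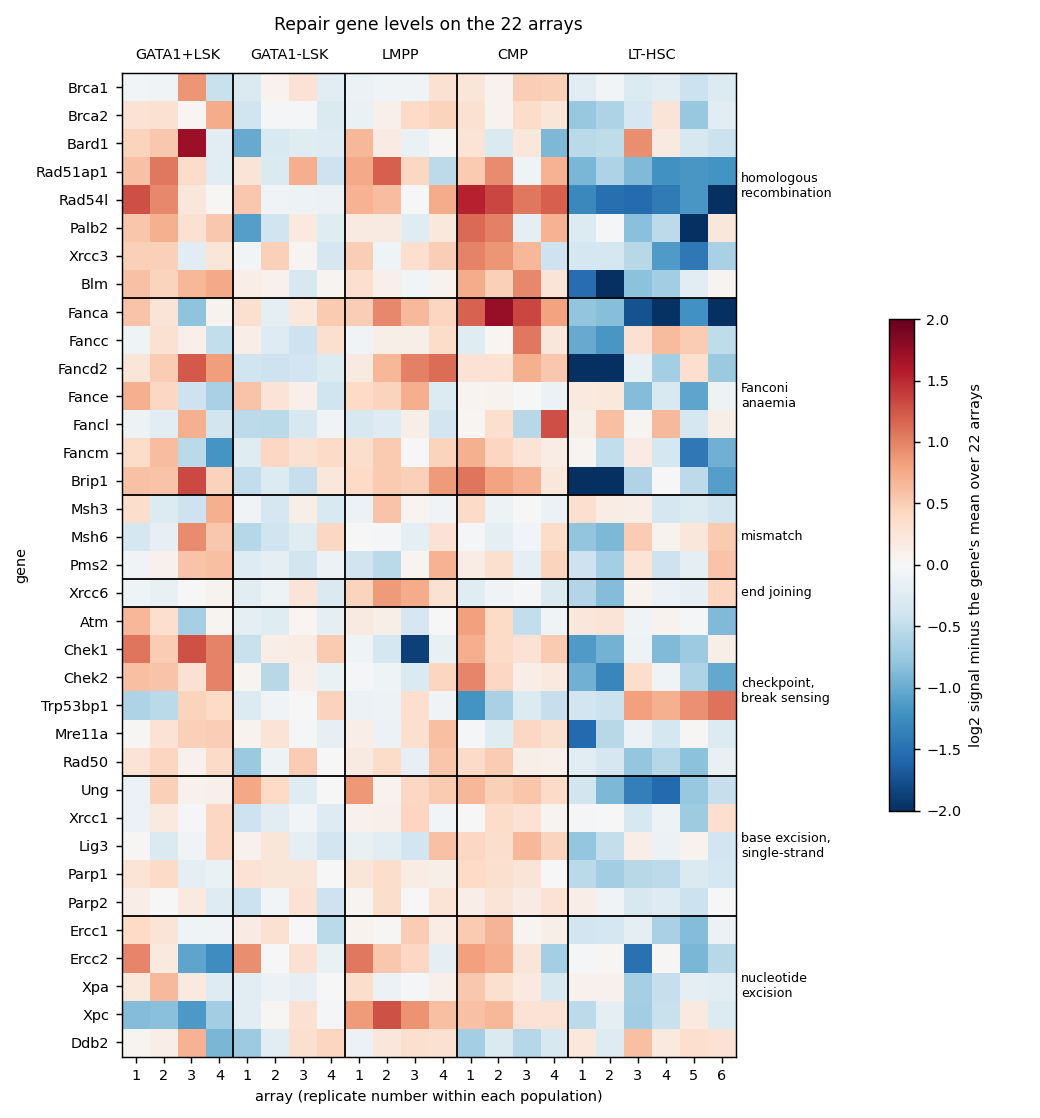
Heat map of the 35 measured repair genes (rows, grouped by pathway) on the 22 arrays (columns, grouped by population with LT-HSC at the right); colour gives the log2 signal minus that gene's mean over all arrays, cut at -2 and 2. Blue fills most of the LT-HSC columns in the homologous recombination and Fanconi anaemia rows, with the 2 leftmost LT-HSC arrays darkest for Fancd2 and Brip1, while Xpc is blue in the GATA1+LSK columns.

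Against LT-HSC, 5 or more repair genes rose in each of the other 4 populations, with the highest count in CMP and the lowest in GATA1-LSK. In GATA1+LSK, 15 of 35 genes were higher than in LT-HSC, against 4.16% of all genes, and 0 were lower, against 6.34% (10.5% in either direction). The count of 0 lower genes depended on the processing. It was 1 without background correction, with the authors' values, without a detection filter and with a random slide block. With the mean over detected probes it was 2. The arrays of 11 genes did not overlap between GATA1+LSK and LT-HSC, against 7.87% of all genes. In GATA1-LSK, 5 were higher, against 2.71% of all genes, and 0 were lower, against 2.74% (5.45% in either direction), and the arrays of 6 did not overlap, against 6.42%. In LMPP, 14 were higher, against 8.27% of all genes, and 0 were lower, against 7.90% (16.2% in either direction), and the arrays of 9 did not overlap, against 13.7%. In CMP, 19 were higher, against 10.1% of all genes, and 1 was lower, against 11.4% (21.5% in either direction), and the arrays of 15 did not overlap, against 15.4%. Median log2 differences of the 35 genes were 0.44, 0.34, 0.61 and 0.72 in GATA1+LSK, GATA1-LSK, LMPP and CMP, where all genes had medians of 0.01, 0.05, 0.06 and 0.06. Within slides the median was 0.69 and 0.57 for GATA1+LSK on slides 2 and 3, 0.10 for GATA1-LSK on slide 3 and 0.87 for CMP on slide 2, and without slide 3 the GATA1+LSK median was 0.75. Scaling arrays to a common median, without quantile normalisation, gave counts of higher genes of 5, 1, 9 and 13 in GATA1+LSK, GATA1-LSK, LMPP and CMP, and leaving out slide 2 gave 7, 6, 14 and 7. Among all genes tested, 227, 49, 437 and 972 were higher with median scaling and 451, 872, 1503 and 754 without slide 2. The main fit had 463, 301, 920 and 1128. These 4 comparisons share the LT-HSC arrays, so their values are given side by side and no overlap is drawn from them. When LT-HSC arrays of slide 3 were dropped, the counts of higher genes were 12, 8, 13 and 15 in the same order of populations, with 0 lower in each, and 34 of the 54 calls were kept. Over all genes tested, 603, 559, 991 and 1025 were higher in that setting, and 779, 523, 1030 and 1322 lower. On slides that held both populations, every called gene kept its direction, namely 15 of 15 on slides 2 and 3 for GATA1+LSK, 5 of 5 on slide 3 for GATA1-LSK and 20 of 20 on slide 2 for CMP. These arrays are among those that made the calls, so this agreement is no independent check. Slide 3 held only 1 array of GATA1+LSK and 1 of GATA1-LSK. LMPP and LT-HSC shared no slide, so that comparison has no value within a slide. Each array was made from RNA of many cells, so fewer cells that express a gene and less RNA per cell cannot be told apart.

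**Figure D2:**
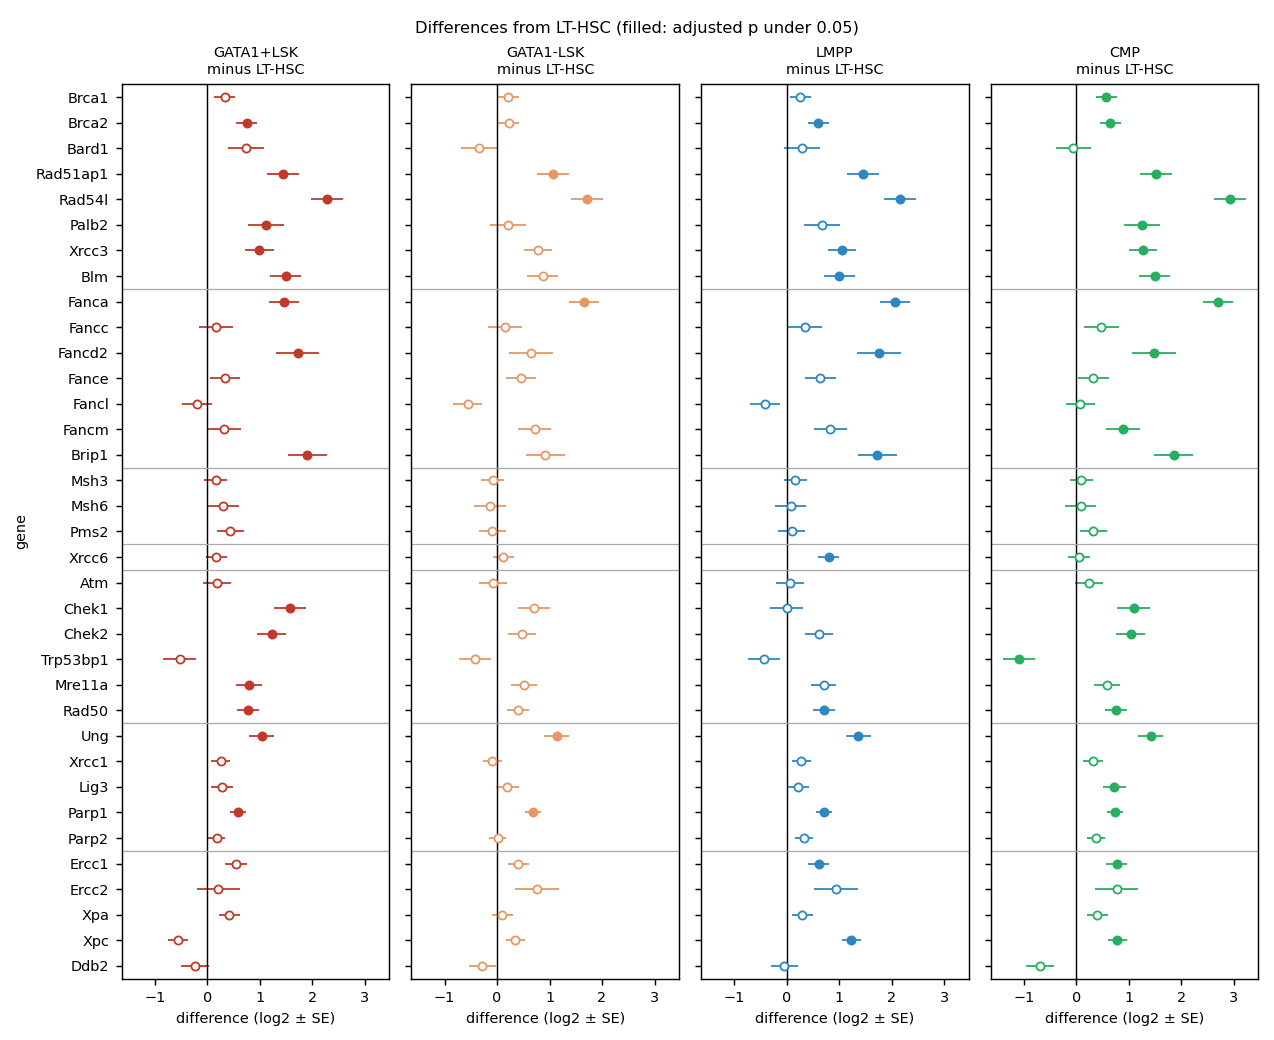
Differences in log2 signal from LT-HSC (horizontal axis, ± SE) of the 35 repair genes (vertical axis, grouped by pathway) in GATA1+LSK, GATA1-LSK, LMPP and CMP; filled points passed an adjusted p of 0.05. Filled points lie to the right of 0 in every panel except for Trp53bp1 in CMP, and Rad54l and Fanca lie farthest right in LMPP and CMP.

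Transcripts of dividing cells moved with the repair genes. Of 50 listed S phase and mitosis genes 38 were measured, and against LT-HSC 29 rose in GATA1+LSK, 17 in GATA1-LSK, 28 in LMPP and 33 in CMP, with 0 lower in each. The shares of all genes that rose were 4.16%, 2.71%, 8.27% and 10.1%, and 6.34%, 2.74%, 7.90% and 11.4% fell. The mitotic kinase gene Cdk1 differed from LT-HSC by 2.30 ± 0.23, 1.29 ± 0.23, 2.15 ± 0.23 and 2.31 ± 0.23 log2 units in those 4 populations, and the replication helicase gene Mcm2 by 1.82 ± 0.20, 1.78 ± 0.20, 1.79 ± 0.20 and 2.002 ± 0.20. Prc1, which encodes a midzone microtubule bundler, and Tk1, thymidine kinase, differed by 2.29 ± 0.23 and 2.21 ± 0.24 in GATA1+LSK. The summed linear signal of the 38 genes was 63467 to 71180 in GATA1+LSK, 44512 to 50957 in GATA1-LSK, 56589 to 62793 in LMPP, 56832 to 70933 in CMP and 24713 to 32186 in LT-HSC. Summed over the 35 repair genes, the signal was 38488 to 41397, 33842 to 36614, 40332 to 43442, 38267 to 46369 and 20480 to 32657 in the same order. LT-HSC arrays lay below all others on both sums. Bright genes weigh most in a linear sum, such as Parp1 and Blm among the repair genes. GATA1-LSK arrays lay between LT-HSC and the rest. The part of cell division in the repair gene differences was not tested.

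**Figure D3:**
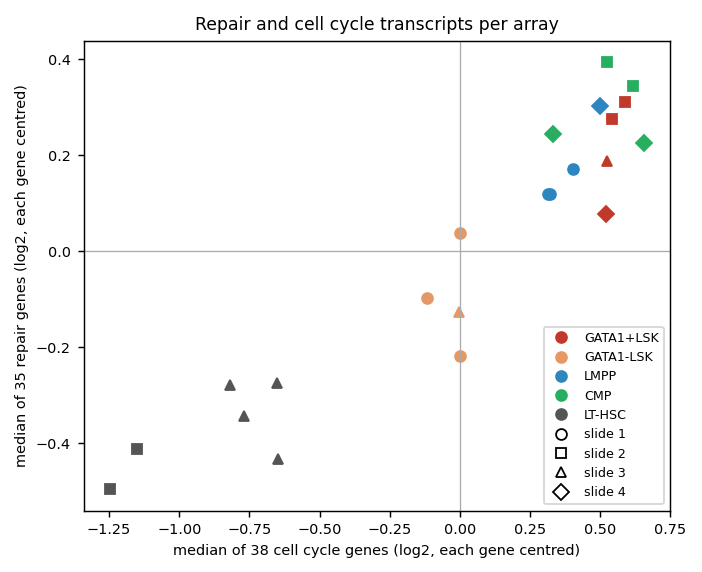
Median of the 38 cell cycle genes (horizontal axis) and median of the 35 repair genes (vertical axis) on each of the 22 arrays, in log2 units after each gene was centred on its mean over the arrays; colour gives the population and shape the slide. LT-HSC arrays lie at the lower left, with repair medians of -0.50 to -0.28, GATA1-LSK arrays near the centre, and GATA1+LSK, LMPP and CMP arrays at the upper right.

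Of 8 measured homologous recombination genes, 6 rose over LT-HSC in GATA1+LSK, 2 in GATA1-LSK, 5 in LMPP and 7 in CMP, with median log2 differences of 1.05, 0.50, 0.83 and 1.26 over all 8. The shares of all genes that rose were 4.16%, 2.71%, 8.27% and 10.1%. With the slide 3 LT-HSC arrays left out, the counts among the 8 were 3, 2, 3 and 4. Rad54l encodes a motor protein that moves along DNA during recombination. On the arrays it gave log2 signals of 11.86, 11.54, 10.81 and 10.60 in GATA1+LSK, 11.11, 10.51, 10.48 and 10.46 in GATA1-LSK, 11.28, 11.19, 10.57 and 11.31 in LMPP, 12.12, 11.91, 11.64 and 11.77 in CMP and 7.59 to 9.41 with a median of 9.12 in LT-HSC. No array of the other populations overlapped LT-HSC. Against LT-HSC Rad54l was higher by 2.28 ± 0.30 (adjusted p = 1.77e-05) in GATA1+LSK, 1.71 ± 0.30 (adjusted p = 0.00143) in GATA1-LSK, 2.16 ± 0.30 (adjusted p = 2.29e-05) in LMPP and 2.93 ± 0.30 (adjusted p = 2.35e-07) in CMP on the log2 scale (± SE, limma), which is 4.85-fold, 3.28-fold, 4.48-fold and 7.63-fold. Without the LT-HSC arrays of slide 3 these differences were 2.02, 1.46, 1.91 and 2.68, all still called. Rad51ap1 encodes a DNA-binding protein that promotes recombination. The log2 signal of the gene was 6.23, 6.69, 5.999 and 5.41 in GATA1+LSK, 5.90, 5.35, 6.36 and 5.23 in GATA1-LSK, 6.40, 6.83, 6.05 and 5.11 in LMPP, 6.16, 6.58, 5.55 and 6.33 in CMP and 4.42 to 5.02 with a median of 4.60 in LT-HSC, and all arrays of the other populations were above LT-HSC. Rad51ap1 rose by 1.44 ± 0.31 (adjusted p = 0.00259) in GATA1+LSK, 1.07 ± 0.31 (adjusted p = 0.0418) in GATA1-LSK, 1.46 ± 0.31 (adjusted p = 0.00168) in LMPP and 1.52 ± 0.31 (adjusted p = 8.34e-04) in CMP. It was detected on 2 of 6 LT-HSC arrays, so its LT-HSC level lies near background. Without the LT-HSC arrays of slide 3 only its difference in CMP kept an adjusted p under 0.05, and 10 of the 22 single arrays, left out in turn, ended the GATA1-LSK call (adjusted p up to 0.167).

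Blm encodes the Bloom syndrome helicase, which dissolves crossed-over recombination intermediates. It had log2 signals of 12.81, 12.68, 12.89 and 12.98 in GATA1+LSK, 12.36, 12.31, 11.91 and 12.29 in GATA1-LSK, 12.57, 12.33, 12.17 and 12.31 in LMPP, 12.98, 12.70, 13.18 and 12.49 in CMP and 10.11 to 12.29 with a median of 11.47 in LT-HSC. GATA1+LSK and CMP arrays all lay above LT-HSC, while the LMPP and GATA1-LSK ranges overlapped it. Blm rose by 1.49 ± 0.30 (adjusted p = 0.00146) in GATA1+LSK, 0.997 ± 0.30 (adjusted p = 0.0236) in LMPP and 1.49 ± 0.30 (adjusted p = 7.53e-04) in CMP, and these became 2.43, 1.93 and 2.43 without the LT-HSC arrays of slide 3. In that setting Blm was also called higher in GATA1-LSK (1.81, adjusted p = 6.26e-05). The LMPP call of the main fit was lost without LMPP replicate 1 or 2 or LT-HSC replicate 1 (adjusted p = 0.0780, 0.0534 and 0.0501). Xrcc3, which encodes a recombination factor, had a log2 signal of 7.91, 7.90, 7.21 and 7.67 in GATA1+LSK, 7.38, 7.90, 7.49 and 7.10 in GATA1-LSK, 7.92, 7.35, 7.74 and 7.92 in LMPP, 8.41, 8.31, 8.09 and 7.01 in CMP and 5.997 to 7.08 with a median of 6.83 in LT-HSC. Every GATA1+LSK and LMPP array was above LT-HSC, and CMP overlapped it through 1 array. The Xrcc3 differences were 0.99 ± 0.27 (adjusted p = 0.0192) in GATA1+LSK, 1.05 ± 0.27 (adjusted p = 0.00935) in LMPP and 1.27 ± 0.27 (adjusted p = 0.00141) in CMP, and without the LT-HSC arrays of slide 3 they fell to 0.59, 0.65 and 0.88, with adjusted p-values of 0.266, 0.198 and 0.0759. The GATA1+LSK call was also lost without GATA1+LSK replicate 1 or 2 (adjusted p = 0.0621 and 0.0644).

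The breast cancer gene products BRCA1 and BRCA2 act early in recombination, BRCA1 in preparing the broken end, with PALB2 bridging the 2 proteins and BARD1 as the partner of BRCA1. Brca1 was near the detection limit, at a log2 signal of 4.76, 4.75, 5.69 and 4.37 in GATA1+LSK, 4.53, 4.89, 5.10 and 4.61 in GATA1-LSK, 4.70, 4.74, 4.74 and 5.12 in LMPP, 5.05, 4.88, 5.31 and 5.30 in CMP and 4.38 to 4.76 with a median of 4.56 in LT-HSC. It was detected on all 4 CMP arrays and on 1 or 2 arrays of each other population, and CMP did not overlap LT-HSC. The difference in CMP was 0.57 ± 0.20 (adjusted p = 0.0491), and it was 0.52 (adjusted p = 0.103) with replicate number as a block, and 16 of the 22 single arrays ended it. Brca2 had a log2 signal of 7.18, 7.20, 6.92 and 7.63 in GATA1+LSK, 6.50, 6.87, 6.86 and 6.60 in GATA1-LSK, 6.75, 6.98, 7.29 and 7.33 in LMPP, 7.19, 6.96, 7.26 and 7.13 in CMP and 6.13 to 7.15 with a median of 6.41 in LT-HSC. All arrays detected it, and the LT-HSC range overlapped every other population. Brca2 rose by 0.75 ± 0.20 (adjusted p = 0.0165) in GATA1+LSK, 0.60 ± 0.20 (adjusted p = 0.0439) in LMPP and 0.65 ± 0.20 (adjusted p = 0.0239) in CMP; the LMPP difference was 0.56 (adjusted p = 0.0598) with the replicate block and was lost without any of 14 single arrays. All 3 calls held without the LT-HSC arrays of slide 3 (1.04, 0.89 and 0.93), and all 3 were lost without slide 2 and with median scaling. Its other calls were lost without GATA1+LSK replicate 4 (adjusted p = 0.0809) and without CMP replicate 1, CMP replicate 3 or LT-HSC replicate 5 (adjusted p = 0.0611, 0.0620 and 0.0534). Palb2 had a log2 signal of 7.44, 7.61, 7.20 and 7.43 in GATA1+LSK, 5.80, 6.50, 7.09 and 6.65 in GATA1-LSK, 7.07, 7.07, 6.65 and 7.11 in LMPP, 8.03, 7.91, 6.71 and 7.59 in CMP and 4.83 to 7.12 with a median of 6.49 in LT-HSC. The lowest LT-HSC array, replicate 5, stood well below the rest. Palb2 rose by 1.12 ± 0.35 (adjusted p = 0.041) in GATA1+LSK and 1.25 ± 0.35 (adjusted p = 0.0116) in CMP, and neither held without the LT-HSC arrays of slide 3 (adjusted p = 0.200 in GATA1+LSK and 0.101 in CMP). Of the single arrays, 10 ended the GATA1+LSK call, and CMP replicate 1 ended the CMP call (adjusted p = 0.0529). Bard1 averaged 6.08 ± 0.81 in GATA1+LSK and 5.36 ± 0.57 in LT-HSC (log2 signal, SD) and passed no test against LT-HSC.

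Among Fanconi anaemia genes, 3 of 7 rose over LT-HSC in GATA1+LSK, 1 in GATA1-LSK, 3 in LMPP and 4 in CMP, with median log2 differences of 0.33, 0.65, 0.83 and 0.89 over all 7. The shares of all genes that rose were 4.16%, 2.71%, 8.27% and 10.1%. Against the slide 2 arrays of LT-HSC alone, the counts among the 7 were 3, 3, 4 and 4. Fanca encodes a subunit of the core complex that attaches ubiquitin to FANCD2. Its log2 signal was 6.84, 6.51, 5.45 and 6.34 in GATA1+LSK, 6.58, 6.08, 6.47 and 6.79 in GATA1-LSK, 6.76, 7.22, 6.91 and 6.69 in LMPP, 7.45, 8.01, 7.60 and 7.06 in CMP and 4.25 to 5.47 with a median of 4.78 in LT-HSC. Only GATA1+LSK replicate 3 fell inside the LT-HSC range, and 2 of 6 LT-HSC arrays detected the gene. Fanca rose by 1.45 ± 0.28 (adjusted p = 0.0012) in GATA1+LSK, 1.65 ± 0.28 (adjusted p = 0.00106) in GATA1-LSK, 2.07 ± 0.28 (adjusted p = 1.60e-05) in LMPP and 2.70 ± 0.28 (adjusted p = 2.74e-07) in CMP. Without the LT-HSC arrays of slide 3, which were its lowest, the GATA1+LSK difference was 0.84 (adjusted p = 0.0998) and the GATA1-LSK difference 1.04 (adjusted p = 0.0531), while LMPP (1.46) and CMP (2.09) kept their calls.

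Fancd2, the protein that carries the ubiquitin mark, and Brip1, a helicase that binds BRCA1 and is also called FANCJ, followed another order among the LT-HSC arrays. Fancd2 had a log2 signal of 8.27, 8.53, 9.25 and 8.85 in GATA1+LSK, 7.62, 7.60, 7.64 and 7.74 in GATA1-LSK, 8.20, 8.69, 9.04 and 9.14 in LMPP, 8.32, 8.31, 8.74 and 8.56 in CMP and 5.48 to 8.36 with a median of 7.31 in LT-HSC. The LT-HSC arrays of slide 2 read 5.48 and 5.68, and those of slide 3 read 7.28 to 8.36, so the LT-HSC spread was wide and reached into the other populations. Fancd2 rose by 1.72 ± 0.41 (adjusted p = 0.00757) in GATA1+LSK, 1.76 ± 0.41 (adjusted p = 0.00448) in LMPP and 1.48 ± 0.41 (adjusted p = 0.0126) in CMP, and against the slide 2 arrays of LT-HSC alone by 3.14, 3.19 and 2.90. Against those arrays alone, Fancd2 was also called higher in GATA1-LSK (2.07, adjusted p = 9.36e-05). The CMP difference was 0.94 (adjusted p = 0.0530) without slide 2. Brip1 had a log2 signal of 8.87, 8.86, 9.61 and 8.74 in GATA1+LSK, 7.79, 8.01, 7.82 and 8.51 in GATA1-LSK, 8.68, 8.80, 8.76 and 9.13 in LMPP, 9.34, 9.08, 8.98 and 8.50 in CMP and 5.78 to 8.29 with a median of 7.43 in LT-HSC. Its LT-HSC arrays of slide 2 read 6.01 and 5.78, against 7.17 to 8.29 on slide 3, and all GATA1+LSK, LMPP and CMP arrays lay above both sets. Brip1 rose by 1.90 ± 0.37 (adjusted p = 0.00125) in GATA1+LSK, 1.73 ± 0.37 (adjusted p = 0.00217) in LMPP and 1.86 ± 0.37 (adjusted p = 7.80e-04) in CMP. These differences were 3.12, 2.95 and 3.08 against the slide 2 arrays of LT-HSC alone. In that setting Brip1 was also called higher in GATA1-LSK (2.14, adjusted p = 8.30e-05).

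Fancm, the translocase that recruits the core complex, was higher in CMP by 0.89 ± 0.32 (adjusted p = 0.0494), where the replicate block gave 0.55 (adjusted p = 0.210), and 17 of the 22 single arrays ended this call. Fancc and Fance, further core complex subunits, and Fancl, its ubiquitin ligase, differed from LT-HSC by 0.48 ± 0.33, 0.32 ± 0.29 and 0.08 ± 0.28 in CMP, with adjusted p-values of 0.336, 0.491 and 0.888. Without the LT-HSC arrays of the dimmest slide, Fancc was called higher in GATA1+LSK (1.04, adjusted p = 0.0350) and GATA1-LSK (1.03, adjusted p = 0.0456). In that setting it was also called higher in LMPP (1.22, adjusted p = 0.0106) and CMP (1.36, adjusted p = 0.00414). Fancl was near background and was detected on 0 of 4 GATA1-LSK arrays.

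Checkpoint and break sensing genes split. In GATA1+LSK 4 of 6 rose over LT-HSC, against 0 in GATA1-LSK, 1 in LMPP and 3 in CMP, and 1 fell in CMP. The shares of all genes that rose were 4.16%, 2.71%, 8.27% and 10.1%, and 11.4% fell in CMP. When LT-HSC arrays of slide 3 were dropped, the counts among the 6 were 3, 2, 2 and 3, and 0 fell. Chek1 encodes the kinase that answers stalled replication forks. On the arrays it gave log2 signals of 7.35, 6.79, 7.55 and 7.28 in GATA1+LSK, 5.84, 6.42, 6.44 and 6.81 in GATA1-LSK, 6.20, 5.93, 4.42 and 6.13 in LMPP, 7.01, 6.67, 6.57 and 6.80 in CMP and 5.15 to 6.40 with a median of 5.48 in LT-HSC. GATA1+LSK and CMP arrays lay above all LT-HSC arrays, and LMPP replicate 3 was the lowest of the 22. Chek1 rose by 1.57 ± 0.31 (adjusted p = 0.00136) in GATA1+LSK and 1.09 ± 0.31 (adjusted p = 0.0142) in CMP, 2.98-fold and 2.13-fold, and the CMP call was lost without CMP replicate 1 (adjusted p = 0.0505) and without slide 2 (0.80, adjusted p = 0.243). With the slide 3 LT-HSC arrays left out, the differences were 2.004 and 1.52, both called. Chek2 encodes the kinase that ATM activates at breaks. The log2 signal of the gene was 6.76, 6.73, 6.46 and 7.15 in GATA1+LSK, 6.21, 5.60, 6.25 and 6.03 in GATA1-LSK, 6.11, 6.08, 5.88 and 6.59 in LMPP, 7.14, 6.57, 6.29 and 6.35 in CMP and 4.85 to 6.50 with a median of 5.37 in LT-HSC. The upper LT-HSC arrays overlapped GATA1+LSK and CMP. Chek2 rose by 1.23 ± 0.27 (adjusted p = 0.00411) in GATA1+LSK and 1.04 ± 0.27 (adjusted p = 0.00853) in CMP. Against the slide 2 arrays of LT-HSC alone, the differences were 1.75 and 1.56, both called. Chek2 was then also called higher in GATA1-LSK (0.997, adjusted p = 0.0316) and LMPP (1.14, adjusted p = 0.00818). Without slide 2 the differences in GATA1+LSK and CMP were 0.99 (adjusted p = 0.0787) and 0.51 (adjusted p = 0.357), and with median scaling the GATA1+LSK call was lost (1.18, adjusted p = 0.0705).

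The break-sensing complex of MRE11, RAD50 and NBS1 was represented by Rad50 and Mre11a. Rad50, its coiled-coil subunit, had a log2 signal of 9.25, 9.41, 9.08 and 9.37 in GATA1+LSK, 8.25, 8.89, 9.49 and 8.99 in GATA1-LSK, 9.16, 9.35, 8.81 and 9.54 in LMPP, 9.37, 9.50, 9.10 and 9.08 in CMP and 8.16 to 8.83 with a median of 8.53 in LT-HSC. GATA1+LSK and CMP did not overlap LT-HSC. Rad50 rose by 0.77 ± 0.21 (adjusted p = 0.0213) in GATA1+LSK, 0.71 ± 0.21 (adjusted p = 0.0253) in LMPP and 0.75 ± 0.21 (adjusted p = 0.0135) in CMP, and none of these held without the LT-HSC arrays of slide 3 (0.56, 0.50 and 0.54, adjusted p = 0.200, 0.233 and 0.187). They were also lost without GATA1+LSK replicate 2 or 4 (adjusted p = 0.0642 and 0.0591), without CMP replicate 2 (0.0554), and without LMPP replicate 1, 2 or 4 or LT-HSC replicate 3 or 5 (0.0525 to 0.0900). Mre11a, its nuclease, rose in GATA1+LSK by 0.79 ± 0.24 (adjusted p = 0.0388). This did not hold when GATA1+LSK replicate 2, 3 or 4 was dropped, or LT-HSC replicate 1, 2 or 4 (adjusted p = 0.0511 to 0.105), and the difference was 1.37 without the LT-HSC arrays of slide 3. In that setting Mre11a was also called in GATA1-LSK, LMPP and CMP (1.09, 1.28 and 1.16, adjusted p = 0.0206, 0.00354 and 0.00584). Atm encodes the kinase that this complex activates, and its log2 signal was 10.49, 10.16, 9.16 and 9.87 in GATA1+LSK, 9.63, 9.57, 9.86 and 9.63 in GATA1-LSK, 9.997, 9.93, 9.49 and 9.82 in LMPP, 10.64, 10.21, 9.33 and 9.74 in CMP and 8.93 to 10.07 with a median of 9.84 in LT-HSC. All populations overlapped, and Atm had the highest F test p-value of the 35 genes (adjusted p = 0.898), with a CMP difference of 0.23 ± 0.27 from LT-HSC. Trp53bp1 encodes 53BP1, a protein that steers breaks away from recombination. Under the main processing it was the only one of the 35 genes called lower than LT-HSC. It averaged 9.96 ± 0.39 in CMP and 11.05 ± 0.68 in LT-HSC (log2 signal, SD, n = 4 and 6), a difference of -1.09 ± 0.31 (adjusted p = 0.0128). The LT-HSC arrays of slide 2 read 10.22 and 10.17 and those of slide 3 read 11.31 to 11.68. Against slide 2 arrays alone the difference was -0.24 (adjusted p = 0.662), without CMP replicate 1 the adjusted p was 0.0647, and another detected probe of the gene had a difference of the opposite sign.

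**Figure D4:**
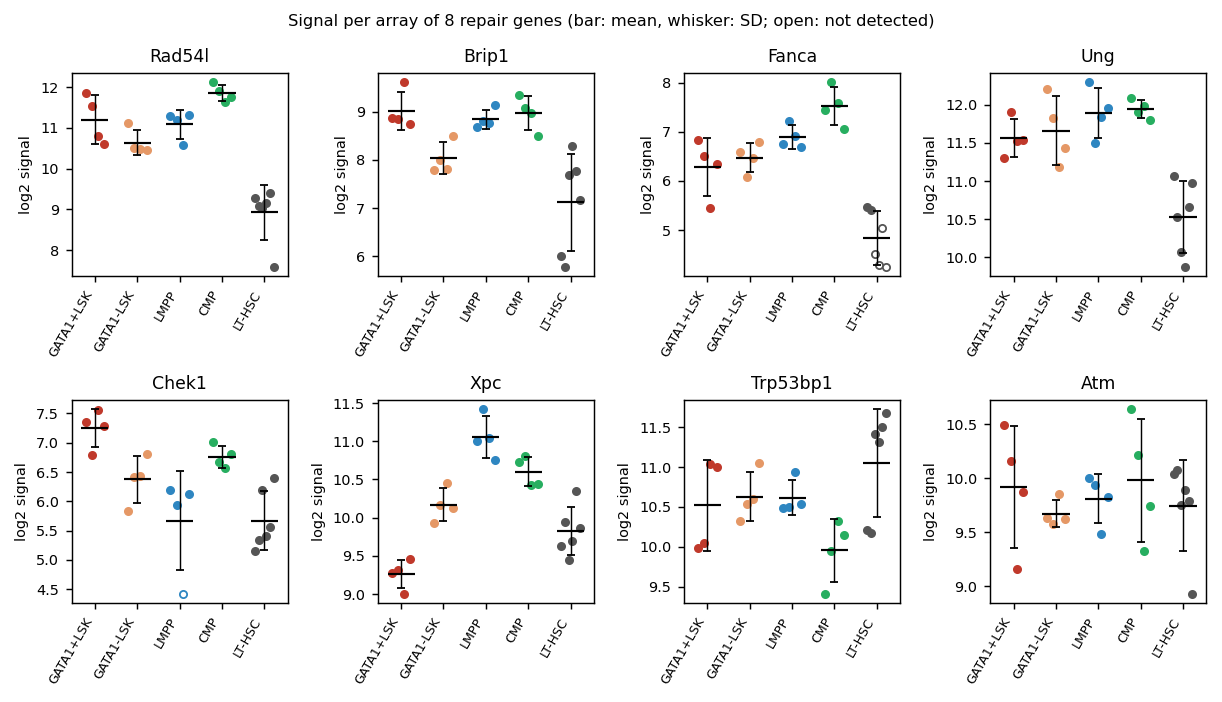
Log2 signal (vertical axes, each with its own range) of Rad54l, Brip1, Fanca, Ung, Chek1, Xpc, Trp53bp1 and Atm on each array, by population; bars are means, whiskers SD, and open points arrays on which the probe was not detected. Rad54l and Ung arrays of LT-HSC lie below all others, Brip1 and Trp53bp1 split into 2 low and 4 high LT-HSC arrays, Xpc is highest in LMPP and lowest in GATA1+LSK, and Atm overlaps everywhere.

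Of the base excision and single-strand break genes, 2 of 5 rose over LT-HSC in each of GATA1+LSK, GATA1-LSK and LMPP, and 3 in CMP. The shares of all genes that rose were 4.16%, 2.71%, 8.27% and 10.1% in those 4 populations. When LT-HSC arrays of slide 3 were dropped, the counts among the 5 were 1, 1, 2 and 3 in GATA1+LSK, GATA1-LSK, LMPP and CMP. Ung encodes the glycosylase that removes uracil from DNA. It had log2 signals of 11.30, 11.90, 11.52 and 11.53 in GATA1+LSK, 12.20, 11.82, 11.18 and 11.44 in GATA1-LSK, 12.29, 11.49, 11.84 and 11.96 in LMPP, 12.09, 11.91, 11.98 and 11.80 in CMP and 9.88 to 11.06 with a median of 10.60 in LT-HSC. No array of the other populations overlapped LT-HSC. Ung rose by 1.04 ± 0.24 (adjusted p = 0.00538) in GATA1+LSK, 1.13 ± 0.24 (adjusted p = 0.00637) in GATA1-LSK, 1.37 ± 0.24 (adjusted p = 2.79e-04) in LMPP and 1.42 ± 0.24 (adjusted p = 1.32e-04) in CMP. With the slide 3 LT-HSC arrays left out, the GATA1+LSK (0.77, adjusted p = 0.0815) and GATA1-LSK (0.87, adjusted p = 0.0598) differences missed the threshold. Parp1 encodes the polymerase that marks nicks with ADP-ribose chains. Its log2 signal was 13.32, 13.43, 12.87 and 12.91 in GATA1+LSK, 13.32, 13.29, 13.29 and 13.03 in GATA1-LSK, 13.28, 13.39, 13.18 and 13.16 in LMPP, 13.44, 13.36, 13.30 and 13.05 in CMP and 12.35 to 12.76 with a median of 12.51 in LT-HSC, and here too LT-HSC stood below every other array. Parp1 rose by 0.58 ± 0.15 (adjusted p = 0.0133) in GATA1+LSK, 0.68 ± 0.15 (adjusted p = 0.0088) in GATA1-LSK, 0.70 ± 0.15 (adjusted p = 0.00215) in LMPP and 0.74 ± 0.15 (adjusted p = 0.00101) in CMP, or 1.5-fold to 1.67-fold, and all 4 held without the LT-HSC arrays of slide 3. A fixed slide block ended the calls in GATA1-LSK (0.61, adjusted p = 0.141) and LMPP (0.66, adjusted p = 0.0588), and leaving out slide 2 ended those in GATA1+LSK (0.28, adjusted p = 0.414) and CMP (0.56, adjusted p = 0.0590). The GATA1+LSK call was also lost without GATA1+LSK replicate 1 or 2 (adjusted p = 0.0545 and 0.0705). Lig3, the ligase that closes the nick, rose in CMP by 0.72 ± 0.21 (adjusted p = 0.018), though another probe ran the opposite way and the call was lost without CMP replicate 3 (adjusted p = 0.0549) and with slide as a fixed block (0.59, adjusted p = 0.0731). It held without the LT-HSC arrays of slide 3 (1.09). Xrcc1, the scaffold for that ligase, and Parp2, a relative of Parp1, differed from LT-HSC in CMP by 0.32 ± 0.18 and 0.37 ± 0.17 (adjusted p = 0.241 and 0.121).

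In the nucleotide excision pathway 0 of 5 genes rose over LT-HSC in GATA1+LSK and GATA1-LSK, and 2 rose in each of LMPP and CMP, which was 1 each without the LT-HSC arrays of slide 3. Over all arrays, 4.16%, 2.71%, 8.27% and 10.1% of all genes rose in GATA1+LSK, GATA1-LSK, LMPP and CMP. Xpc encodes the protein that recognises helix-distorting lesions across the genome. On the arrays it gave log2 signals of 9.28, 9.31, 9.004 and 9.46 in GATA1+LSK, 9.93, 10.17, 10.45 and 10.13 in GATA1-LSK, 11.004, 11.42, 11.04 and 10.75 in LMPP, 10.73, 10.81, 10.43 and 10.44 in CMP and 9.45 to 10.35 with a median of 9.78 in LT-HSC. GATA1+LSK arrays lay below every GATA1-LSK, LMPP and CMP array, and LMPP and CMP arrays above every LT-HSC array. Xpc was lower in GATA1+LSK, with a log2 difference from GATA1-LSK of -0.90 ± 0.20 (adjusted p = 0.0141), -1.79 ± 0.20 (adjusted p = 1.46e-06) from LMPP and -1.34 ± 0.20 (adjusted p = 1.06e-04) from CMP, which is 1.87-fold, 3.46-fold and 2.53-fold lower. Against LT-HSC the GATA1+LSK difference was -0.56 ± 0.18 (adjusted p = 0.0544). LMPP and CMP were above LT-HSC by 1.23 ± 0.18 (adjusted p = 4.43e-05) and 0.78 ± 0.18 (adjusted p = 0.0033), and by 1.27 and 0.81 without the LT-HSC arrays of slide 3, both called. The CMP call was lost without slide 2 (0.60, adjusted p = 0.152). Within slides the GATA1+LSK difference was -1.12 from GATA1-LSK on slide 3 and -1.30 from LMPP on slide 4, each from 1 array against 1 array. From CMP the GATA1+LSK difference was -1.47 and -0.98 on slides 2 and 4. The difference from GATA1-LSK missed the threshold with slide as a fixed block (-0.77, adjusted p = 0.164) and without GATA1-LSK replicate 3 or GATA1+LSK replicate 3 (adjusted p = 0.0595 and 0.0557).

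Ercc1, part of the nuclease that cuts on the 5′ side of the lesion, had a log2 signal of 9.34, 9.19, 8.84 and 8.86 in GATA1+LSK, 9.10, 9.24, 8.92 and 8.39 in GATA1-LSK, 8.9997, 8.96, 9.45 and 9.08 in LMPP, 9.45, 9.62, 8.99 and 9.05 in CMP and 8.07 to 8.81 with a median of 8.58 in LT-HSC. LMPP and CMP arrays lay above all LT-HSC arrays. Ercc1 rose by 0.61 ± 0.20 (adjusted p = 0.0425) in LMPP and 0.77 ± 0.20 (adjusted p = 0.00836) in CMP, and by 0.55 (adjusted p = 0.159) and 0.70 (adjusted p = 0.0647) against the slide 2 arrays of LT-HSC alone, and 9 single arrays ended the LMPP call. Xpa, the damage verifier, and Ercc2, the XPD helicase, differed from LT-HSC in CMP by 0.40 ± 0.20 and 0.77 ± 0.41 (adjusted p = 0.17 and 0.208), and a dimmer probe of Ercc2 had a difference of -2.09 there. Ddb2, the ultraviolet damage sensor and a p53 target, averaged 7.14 ± 0.19 in CMP and 7.83 ± 0.28 in LT-HSC, and its difference of -0.70 ± 0.26 (adjusted p = 0.0608) missed the threshold although the arrays did not overlap.

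No mismatch repair gene passed a test in the 7 comparisons over all arrays. When the LT-HSC arrays of slide 3 were left out, Msh6 was called higher in GATA1+LSK (1.09, adjusted p = 0.0354). Msh6, Msh3 and Pms2, which encode mismatch recognition subunits and a downstream endonuclease subunit, differed from LT-HSC by 0.30 ± 0.30, 0.15 ± 0.22 and 0.44 ± 0.25 in GATA1+LSK and by 0.08 ± 0.30, 0.10 ± 0.22 and 0.33 ± 0.25 in CMP. Msh3 was near background and was detected on 0 of 4 GATA1-LSK arrays. Xrcc6 had a log2 signal of 11.84, 11.79, 11.95 and 12.01 in GATA1+LSK, 11.72, 11.84, 12.19 and 11.65 in GATA1-LSK, 12.39, 12.78, 12.68 and 12.25 in LMPP, 11.70, 11.87, 11.91 and 11.65 in CMP and 11.06 to 12.37 with a median of 11.80 in LT-HSC. LMPP arrays lay above all but the highest of the LT-HSC arrays. Of the 4 comparisons with LT-HSC, Xrcc6 passed the test in LMPP, by 0.80 ± 0.21 (adjusted p = 0.00935), and its difference in GATA1+LSK was 0.17 ± 0.21 (adjusted p = 0.733). The LMPP difference was 0.60 (adjusted p = 0.170) with slide as a fixed block, 0.53 (adjusted p = 0.0546) without slide 2 and 1.32 without the LT-HSC arrays of slide 3, where the GATA1+LSK difference was called as well (0.70, adjusted p = 0.0360).

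At the threshold and over all arrays, GATA1+LSK differed from GATA1-LSK, LMPP or CMP in 3 repair genes, Xpc, Chek1 and Fanca. Against GATA1-LSK 0 of 35 were higher, where 1.08% of all genes were, and 1 (Xpc) was lower, where 1.66% were (2.74% in either direction). Although 1 gene was called, 27 of the 35 lay above 0, with a median log2 difference of 0.25 against -0.05 over all genes, and 9 of 35 had arrays that did not overlap, against 9.03% of all genes. Homologous recombination genes had a median difference of 0.55 with 8 of 8 above 0, led by Bard1 at 1.07 ± 0.37 (adjusted p = 0.149). The Fanconi anaemia genes Fancd2 and Brip1 differed by 1.07 ± 0.45 (adjusted p = 0.259) and 0.99 ± 0.41 (adjusted p = 0.247), and none of these 3 passed the test over all arrays. The slide 3 LT-HSC arrays belong to neither population. With them left out of the fit, the Fancd2 and Brip1 differences were unchanged and were called (adjusted p = 0.00939 and 0.0183). That of Bard1 was not called (adjusted p = 0.0950). Among the 38 cell cycle genes 6 were higher in GATA1+LSK than in GATA1-LSK, with a median of 0.60. Against LMPP 1 gene was higher, where 3.71% of all genes were, and 1 was lower, where 4.86% were (8.57% in either direction); the arrays of 5 genes did not overlap, against 13.8% of all genes. The higher one was Chek1, whose arrays did not overlap and which was higher in GATA1+LSK by 1.58 ± 0.34 (adjusted p = 0.0034), 2.98-fold. With slide as a fixed block the Chek1 difference was 1.23 (adjusted p = 0.0994), and on slide 4 it was 1.15, from 1 array against 1 array. Against CMP 0 genes were higher, where 3.49% of all genes were, and 2 were lower, where 3.01% were (6.50% in either direction); the arrays of 2 genes did not overlap, against 10.8% of all genes. Besides Xpc, Fanca was lower in GATA1+LSK, with a log2 difference of -1.24 ± 0.31 (adjusted p = 0.0149), 2.37-fold. On slides 2 and 4 the difference was -1.05 and -0.99, and the call was lost without CMP replicate 2 (adjusted p = 0.0679) or GATA1+LSK replicate 3 (adjusted p = 0.0698).

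**Figure D5:**
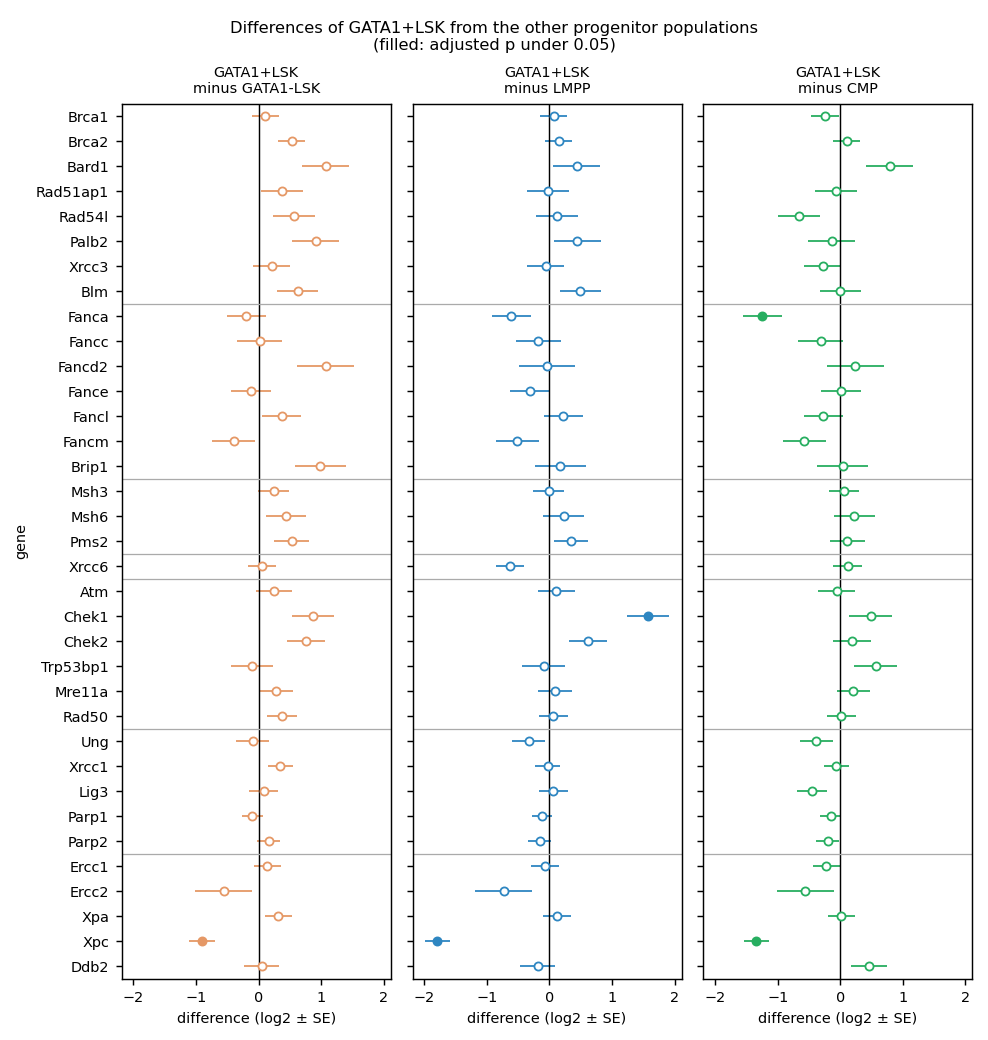
Differences in log2 signal (horizontal axis, ± SE) of GATA1+LSK from GATA1-LSK, LMPP and CMP for the 35 repair genes (vertical axis, grouped by pathway); filled points passed an adjusted p of 0.05. Xpc is filled at the left in all 3 panels, Chek1 at the right against LMPP, and Fanca at the left against CMP.

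Promoters of several of these genes are shown, to set their letters beside the differences. They were taken from RefSeq for build GRCm38.p6, from 250 bases before to 50 bases after the start of the gene, and 31 of the 35 measured genes matched. The 4 promoters shown first belong to genes with low F test p-values, and Msh3 and Atm had the highest p-values, for contrast. Letters run 5′ to 3′ on the strand of the gene, and capitals mark motif matches on either strand.
Rad54l, chr4:116123641-116123940, minus strand: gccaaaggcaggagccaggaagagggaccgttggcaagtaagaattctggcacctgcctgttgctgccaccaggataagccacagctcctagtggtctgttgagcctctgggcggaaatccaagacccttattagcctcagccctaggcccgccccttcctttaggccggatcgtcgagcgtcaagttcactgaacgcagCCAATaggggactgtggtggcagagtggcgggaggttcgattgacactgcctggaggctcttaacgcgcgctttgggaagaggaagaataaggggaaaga
Fanca, chr8:123318527-123318826, minus strand: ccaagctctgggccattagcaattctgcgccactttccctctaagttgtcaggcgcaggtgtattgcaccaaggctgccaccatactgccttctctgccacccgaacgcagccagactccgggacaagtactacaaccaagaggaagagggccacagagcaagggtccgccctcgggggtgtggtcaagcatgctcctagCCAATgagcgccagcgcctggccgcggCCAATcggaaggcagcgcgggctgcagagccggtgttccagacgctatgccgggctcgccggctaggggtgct
Ung, chr5:114130185-114130484, plus strand: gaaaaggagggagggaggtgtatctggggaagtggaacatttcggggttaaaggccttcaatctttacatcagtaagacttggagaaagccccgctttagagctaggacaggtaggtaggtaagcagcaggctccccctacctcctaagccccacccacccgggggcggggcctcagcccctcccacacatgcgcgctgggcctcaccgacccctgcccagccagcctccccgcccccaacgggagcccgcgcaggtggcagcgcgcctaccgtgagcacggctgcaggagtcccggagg
Brip1, chr11:86201144-86201443, minus strand: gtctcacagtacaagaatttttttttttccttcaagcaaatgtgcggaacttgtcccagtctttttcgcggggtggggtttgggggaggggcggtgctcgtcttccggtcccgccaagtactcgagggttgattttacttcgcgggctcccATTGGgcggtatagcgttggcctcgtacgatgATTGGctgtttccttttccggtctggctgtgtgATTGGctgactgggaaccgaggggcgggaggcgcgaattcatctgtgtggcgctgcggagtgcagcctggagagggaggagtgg
Msh3, chr13:92354954-92355253, minus strand: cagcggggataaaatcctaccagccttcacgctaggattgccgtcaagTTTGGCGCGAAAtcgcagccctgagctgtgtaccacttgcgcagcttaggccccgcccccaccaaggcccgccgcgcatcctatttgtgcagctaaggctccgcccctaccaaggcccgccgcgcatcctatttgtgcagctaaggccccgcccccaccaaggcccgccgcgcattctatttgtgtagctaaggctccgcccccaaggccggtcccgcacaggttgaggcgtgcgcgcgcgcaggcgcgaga
Atm, chr9:53536622-53536921, minus strand: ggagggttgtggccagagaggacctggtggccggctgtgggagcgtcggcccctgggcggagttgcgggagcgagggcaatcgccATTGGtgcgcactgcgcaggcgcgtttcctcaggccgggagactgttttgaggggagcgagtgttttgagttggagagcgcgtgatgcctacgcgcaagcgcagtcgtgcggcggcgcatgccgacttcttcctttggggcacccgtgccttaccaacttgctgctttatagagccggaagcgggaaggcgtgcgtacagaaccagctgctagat

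Motifs known from cell cycle promoters were searched on both strands. The CCAAT box, read by the factor NF-Y and printed as ATTGG where it lies on the other strand, was found once in Rad54l and Atm, at 2 places in Fanca and at 3 in Brip1. It was found in 20 of 31 repair promoters (64.5%), against 37.9% of 27025 promoters. E2F letters, spelled TTTCCCGC, TTTGGCGC, TTTCGCGC or TTTGCCGC, were found in 6 of 31 (19.4%), against 2.32% of all promoters. These 6 belonged to Chek2, Brca2, Xrcc6, Bard1, Msh6 and Msh3, and in Msh3 an E2F match on each strand overlapped to form 1 run of capitals. The CHR element, spelled TTTGAA or TTCGAA, was found in 1 of 31 (3.23%), against 19.4% of all promoters. CCAAT was present in 9 of 14 promoters of genes that the F test called and in 11 of 17 of the others, and E2F letters in 3 of 14 and 3 of 17. The promoter of Ung held none of these motifs. The 27025 promoters belong to all genes of the reference, measured here or not, and were not matched in base composition. The part of base composition in these shares was not tested. A match describes letters in this window and not a bound site.

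Further repair genes were read beside the listed ones. Of 73 further repair genes 52 were measured, and the F test called 15 of them (28.8%), against 22.9% of all genes. Against LT-HSC 4 were higher and 1 lower in GATA1+LSK (9.62% called, against 10.5% of all genes) and 4 and 0 in GATA1-LSK (7.69%, against 5.45%). In LMPP 9 were higher and 2 lower (21.2%, against 16.2%). In CMP 12 were higher and 1 lower of the 52, where 21.5% of all genes were called. The shares called in either direction were thus near those of all genes. By direction, most of the called further genes were higher than in LT-HSC in all 4 populations. All genes were split more evenly, with 4.16% higher and 6.34% lower in GATA1+LSK, and 2.71% and 2.74% in GATA1-LSK. In LMPP 8.27% of all genes were higher and 7.90% lower, and in CMP 10.1% and 11.4%. Clspn, which encodes the adaptor through which CHEK1 is activated, rose over LT-HSC by 1.87 ± 0.23 (adjusted p = 8.09e-06) in GATA1+LSK and 1.54 ± 0.23 (adjusted p = 4.05e-05) in CMP, and over GATA1-LSK in GATA1+LSK by 1.07 ± 0.26 (adjusted p = 0.0237). H2ax, the histone variant phosphorylated at breaks, rose by 1.75 ± 0.24 (adjusted p = 2.08e-05) in GATA1+LSK and 0.97 ± 0.24 (adjusted p = 0.0179) in GATA1-LSK. Rad54b, a relative of Rad54l, rose by 1.88 ± 0.29 (adjusted p = 1.12e-04) in GATA1+LSK, 1.76 ± 0.29 (adjusted p = 1.75e-04) in LMPP and 1.58 ± 0.29 (adjusted p = 3.96e-04) in CMP. Usp1, which removes ubiquitin from FANCD2, rose in CMP by 1.43 ± 0.27 (adjusted p = 3.89e-04).

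Targets of p53 were called in both directions. Of 24 listed, 21 were measured, and the F test called 5 (23.8%), close to the 22.9% of all genes. Against LT-HSC 1 was higher and 2 lower in GATA1+LSK (14.3% called, against 10.5% of all genes), 1 and 1 in GATA1-LSK (9.52%, against 5.45%), 4 and 2 in LMPP (28.6%, against 16.2%) and 3 and 2 in CMP (23.8%, against 21.5%). Gtse1, which is also a mitotic gene, rose by 2.01 ± 0.27 (adjusted p = 1.51e-05) in GATA1+LSK and 1.80 ± 0.27 (adjusted p = 2.91e-05) in CMP. Sesn1, a stress-induced inhibitor of growth signalling, was lower, with log2 differences of -1.46 ± 0.26 (adjusted p = 4.11e-04) in GATA1+LSK and -1.53 ± 0.26 (adjusted p = 1.21e-04) in CMP. Plk2, a stress-induced kinase, was lower in CMP, with a log2 difference of -1.90 ± 0.40 (adjusted p = 0.0014), and Phlda3, an inhibitor of AKT, was higher in LMPP by 0.61 ± 0.16 (adjusted p = 0.00944).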

How the data were processed

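Total RNA of 22 bone marrow samples was amplified to biotin-labelled cRNA and read on Illumina bead arrays, per the labels' protocols. The deposited intensity is on a linear scale that goes below 0, which a background subtraction leaves. The deposited detection p-value compares each probe with negative control beads. BeadStudio is named without a version, per the submitters' processing notes; the annotation and build are not given in the sources used here. The series matrix, used as an alternative, holds the authors' intensity values, whose distribution is nearly the same on every array.

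Intensities were background corrected with negative controls inferred from the detection p-values (normexp, offset 16), quantile normalised and log2 transformed (neqc, limma 3.58.1, R 4.3.3). Of 45281 probes, 34885 named 1 gene, 18 several and 10378 none, and the last 2 kinds were left out. Probes detected at p under 0.05 on at least 4 arrays were kept (19764, of which 16575 named 1 gene), and the brightest stood for each of 11118 genes. All arrays entered 1 limma model with a mean for each population (lmFit and eBayes, 17 residual degrees of freedom). The moderated F test and 7 two-sided contrasts were Benjamini-Hochberg adjusted over all genes, with a threshold of 0.05. Precision is limited by the number of arrays. The fit was tested on simulated data.

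The genes and lists were chosen with earlier results of these data known. Values by array are given for Brca1, Brca2, Atm and the 16 further genes with the lowest F test p, and at most 4 genes are named from each other list. Alternatives were no background correction, median scaling, the authors' values, no detection filter, detection p under 0.01, the mean over detected probes, a fixed and a random slide block (statmod 1.5.0), replicate number as a block, each array left out, and values within slides. Leaving out slide 2, slide 3 or the LT-HSC arrays of slide 3 was chosen after seeing the data. Same-numbered arrays deviated together in every pair for GATA1+LSK with CMP (r = 0.187 to 0.584 across genes, which are not independent) and with LT-HSC (0.240 to 0.641), LMPP with LT-HSC (0.111 to 0.484) and CMP with LT-HSC (0.174 to 0.582). In the order given, 3, 3, 0 and 2 of 4 such pairs lay on 1 slide. Replicates 5 and 6 exist only for LT-HSC and drop out of the blocked comparison.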

Additional observations from a re-analysis of the deposited data

Results flagged for a closer look

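Among 95 sets of arrays (19 genes in 5 populations), 10 held 1 array that stood apart from the rest of its population by Dixon's criterion at the 95% level, which chance alone gives in about 1 of 20 sets. LMPP replicate 3 appeared 3 times: Rad54l read 10.57 (others 11.19 to 11.31), Chek1 4.42 (others 5.93 to 6.20, and not detected on this array) and Palb2 6.65 (others 7.07 to 7.11). LT-HSC replicate 6 appeared for Rad54l, at 7.59 (others 9.03 to 9.41), and for Atm, at 8.93 (others 9.75 to 10.07). In GATA1-LSK, Rad54l read 11.11 on replicate 1 (others 10.46 to 10.51), Parp1 13.03 on replicate 4 (others 13.29 to 13.32) and Blm 11.91 on replicate 3 (others 12.29 to 12.36). Brip1 read 9.61 on GATA1+LSK replicate 3 (others 8.74 to 8.87), and Brca1 read 5.12 on LMPP replicate 4 (others 4.70 to 4.74). All values are log2 signals. The Rad54l calls against LT-HSC and the Chek1 call of GATA1+LSK against LMPP were kept when any single array was left out.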

How the results depend on the processing

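Of 59 calls on the 35 genes over the 7 comparisons, 19 (in 9 of 22 genes) were kept under every setting run and without any single array: those of Rad54l and Brip1 against LT-HSC in GATA1+LSK, LMPP and CMP, Blm in GATA1+LSK and CMP, Fanca and Ung in LMPP and CMP, Fancd2 in GATA1+LSK and LMPP, Chek1 in GATA1+LSK, Rad51ap1 in CMP, Xpc in LMPP, and the lower Xpc of GATA1+LSK against LMPP and CMP. No call reversed. Median scaling kept 29 of 59 calls, slide as a fixed block 41, leaving out slide 2 36, slide 3 42 and the LT-HSC arrays of slide 3 39, and the other settings 54 to 59; the causes were not tested. Median scaling shifted the median of all genes to 0.29 for CMP minus LT-HSC, 0.17 for LMPP minus LT-HSC, -0.22 for GATA1+LSK minus CMP and -0.11 for GATA1+LSK minus LMPP, and the share of higher genes among all called ones moved to 63.3% from 47.2% in the first of these, 30.6% from 53.7% in the third, 73.1% from 39.3% for GATA1+LSK minus GATA1-LSK and 33.3% from 49.7% for GATA1-LSK minus LT-HSC.

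Counts of repair genes called changed by over 1.5 times as follows. For any difference, 17 became 10 with median scaling, where all genes called went from 2546 to 1257. For GATA1+LSK minus GATA1-LSK, 1 became 0 with median scaling and slide as a fixed block, 2 with the replicate block, 3 with mean probes, without slide 3 and without the LT-HSC arrays of slide 3, and 5 without slide 2. All genes called there went from 305 to 78, 212, 572, 296, 356, 484 and 1705 in those settings as listed. For GATA1+LSK minus LMPP, 2 became 1 with median scaling and the fixed slide block and 5 without slide 2. There all genes called went from 953 to 447, 848 and 2191. For GATA1+LSK minus CMP, 2 became 1 with median scaling, where all genes called went from 723 to 346. For GATA1+LSK minus LT-HSC, 15 became 5 with median scaling and 7 without slide 2, where all genes called went from 1168 to 498 and 1139. For GATA1-LSK minus LT-HSC, 5 became 1 with median scaling, 3 with mean probes and the fixed slide block, and 8 without the LT-HSC arrays of slide 3. For LMPP minus LT-HSC, 14 became 9 with median scaling and 8 with the fixed slide block. There all genes called went from 1798 to 815 and 1114. For CMP minus LT-HSC, 20 became 8 without slide 2, where all genes called went from 2390 to 1629. Leaving out 1 array gave 13 to 17, 0 to 1, 2 to 2, 1 to 2, 10 to 15, 4 to 6, 11 to 15 and 14 to 21 repair genes called in the same order. The replicate block ended the calls of Brca1 and Fancm in CMP and of Brca2 in LMPP, and no other call.

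Median log2 differences of the repair genes moved by more than the spread between arrays (0.09) as follows. GATA1+LSK minus GATA1-LSK, 0.25, became 0.15 without a detection filter. GATA1+LSK minus LMPP, -0.01, became -0.23 within slide 4, and GATA1+LSK minus CMP, -0.06, became -0.36 with median scaling. GATA1+LSK minus LT-HSC, 0.44, became 0.56 without background correction and with the authors' values, 0.55 with median scaling, 0.31 without a filter, 0.75 without slide 3, 0.69 without the LT-HSC arrays of slide 3, and 0.69 and 0.57 within slides 2 and 3. GATA1-LSK minus LT-HSC, 0.34, became 0.20 without a filter, 0.44 without slide 3 and 0.10 within slide 3. LMPP minus LT-HSC, 0.61, became 0.71 without background correction and with the authors' values, 0.72 with median scaling, 0.33 without a filter, 0.51 with the replicate block and 0.46 without slide 2. CMP minus LT-HSC, 0.72, became 1.07 with median scaling, 0.44 without a filter, 0.60 with mean probes, 0.55 without slide 2 and 0.87 within slide 2. Without 1 array the ranges were 0.15 to 0.31 for GATA1+LSK minus GATA1-LSK, -0.012 to 0.084 for GATA1+LSK minus LMPP, and, for the others as ordered, -0.13 to 0.03, 0.38 to 0.61, 0.25 to 0.37, 0.52 to 0.68 and 0.62 to 0.73. Fewer arrays or added near-background genes are part of several of these settings by construction.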

Other observations

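Parp3, a relative of Parp1 that acts at breaks, was chosen here after its values were seen, from the 52 further repair genes. It was lower in GATA1+LSK, with a log2 difference from GATA1-LSK of -2.36 ± 0.53 (adjusted p = 0.0154), -2.61 ± 0.53 (adjusted p = 0.00203) from LMPP and -1.91 ± 0.49 (adjusted p = 0.012) from LT-HSC (± SE, limma), and its difference from CMP was -1.61 ± 0.53 (adjusted p = 0.0792). Ercc2 had a second detected probe that disagreed with the one used: at a mean log2 signal of 5.51 over the arrays, it was lower than in LT-HSC, with log2 differences of -1.97 ± 0.20 (adjusted p = 6.99e-07) in GATA1+LSK and -2.09 ± 0.20 (adjusted p = 9.50e-08) in CMP, where the brighter probe gave 0.21 ± 0.41 and 0.77 ± 0.41. Of the other detected probes of called genes, all ran in the called direction in GATA1+LSK (13 of 13), GATA1-LSK (5 of 5) and LMPP (11 of 11) against LT-HSC, and 14 of 16 did in CMP, with Trp53bp1 and Lig3 as the exceptions.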
